A study of Homo sapiens with 6 samples.

Results

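Immune checkpoint ligands are proteins on or released from tumour cells that bind receptors of T cells, natural killer cells or macrophages and restrain them. The 8 genes described here were CD274, PDCD1LG2, CD276, NECTIN2, PVR, LGALS9, CD47 and TNFRSF14, chosen by name from the 78932 genes of the count table, and all 8 had a row there. T24 is a human urothelial carcinoma line, and its cells were transfected with a non-targeting negative control siRNA (siNC, 3 libraries) or with siRNA against TRIM28 (siTRIM28, 3 libraries). The labels call the 3 libraries of a group biological replicates, give 1 batch for all 6 and state no further treatment. All libraries came from poly(A) RNA of cultures of this line alone, without immune cells added according to the labels, and which TRIM28 siRNA the cultures received was not given in the sources used here.

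Blockade of such pathways is used against urothelial carcinoma, the cancer from which the T24 line derives. PD-L1 (CD274) and PD-L2 (PDCD1LG2) bind PD-1 on T cells. NECTIN2 and PVR bind the inhibitory receptor TIGIT and the activating receptor CD226, so the balance of these ligands and receptors sets how strongly lymphocytes respond. CD47 binds SIRPA on macrophages and restrains phagocytosis. Interferon gamma raises CD274 transcription through JAK kinases, STAT proteins and IRF1, while the amount of PD-L1 and CD47 at the surface also depends on carrier proteins and enzymes that act on the proteins themselves.

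TRIM28 mRNA was lower in all 3 siTRIM28 libraries, as their labels say. Its counts were 1419, 1393 and 1382 in siNC and 130, 96 and 109 in siTRIM28, a log2 fold change of −3.54 (SE 0.0723, adjusted p = 1.03e-10 from the edgeR quasi-likelihood F-test, with Benjamini-Hochberg adjustment over 18474 genes as in all adjusted p-values here). Total counts were 12989362 to 13942383 in siNC and 11712623 to 14018052 in siTRIM28, and 1 read was worth 0.0714 to 0.0845 CPM (counts scaled to library size). Replicates 1 and 2 of siNC, and replicates 2 and 3 of siTRIM28, lay closest to each other, and siTRIM28 replicate 1 and siNC replicate 3 stood apart from the rest of their groups. The closest pairs still differed by slightly more than sampling noise (chi-square per degree of freedom 1.08 and 1.22, against 4.17 to 6.25 for the other pairs). All 6 libraries were counted as separate, as the labels describe them. Whether the libraries of the closest pairs came from separate cultures cannot be told from the counts. If they did not, the SEs and p-values given here may be too small. KRT8 and KRT18, keratins of simple epithelia, were present at 1070 to 1680 reads. Of the other urothelial and epithelial markers, KRT7 had 37 to 58 reads, and GATA3, KRT19, UPK2 and EPCAM had 0 to 10. UPK1B and KRT20 had no read, and KRT5, CDH1 and UPK3A had at most 2. Of 16 immune cell markers, 4 had no read in any library (CD2, CD3E, CD3G and NKG7, of T and natural killer cells), and the others had 0 to 15 reads. Their summed level was 1.08 to 1.37 CPM in siNC and 0.676 to 1.01 CPM in siTRIM28, with ITGAM (2 to 15 reads) the most abundant in siNC. Loss of TRIM28 and other effects of the siRNA duplex cannot be told apart in this design.

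The ligands divided into 5 that were measured well and 3 near the detection limit. CD274, CD276, NECTIN2, PVR and CD47 passed the minimum of 10 counts in at least 3 of 6 libraries, and PDCD1LG2, LGALS9 and TNFRSF14 did not. After TRIM28 knockdown NECTIN2 and CD47 mRNA rose, and none of the 5 was called lower. In RNA from whole cultures, a transcript in fewer cells and less of it per cell cannot be told apart, and protein was not measured. The 2 rises are to be read against a background in which 21.3% of the 18474 genes tested were called higher and 20.5% lower at an adjusted p under 0.05 (edgeR). Neither rise reached a log2 fold change of 0.58, a size that 1757 genes called higher had. The count of 0 called lower was also 0 at an unadjusted p under 0.05 in this edgeR fit, with DESeq2 and with limma-voom, though CD274 passed that unadjusted limit in edgeR without the filter and without siNC replicate 1. The groups did not overlap in NECTIN2, CD47 and CD276, 3 of the 5 tested ligands, where 52.0% of all genes tested showed no overlap.

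**Figure D1:**
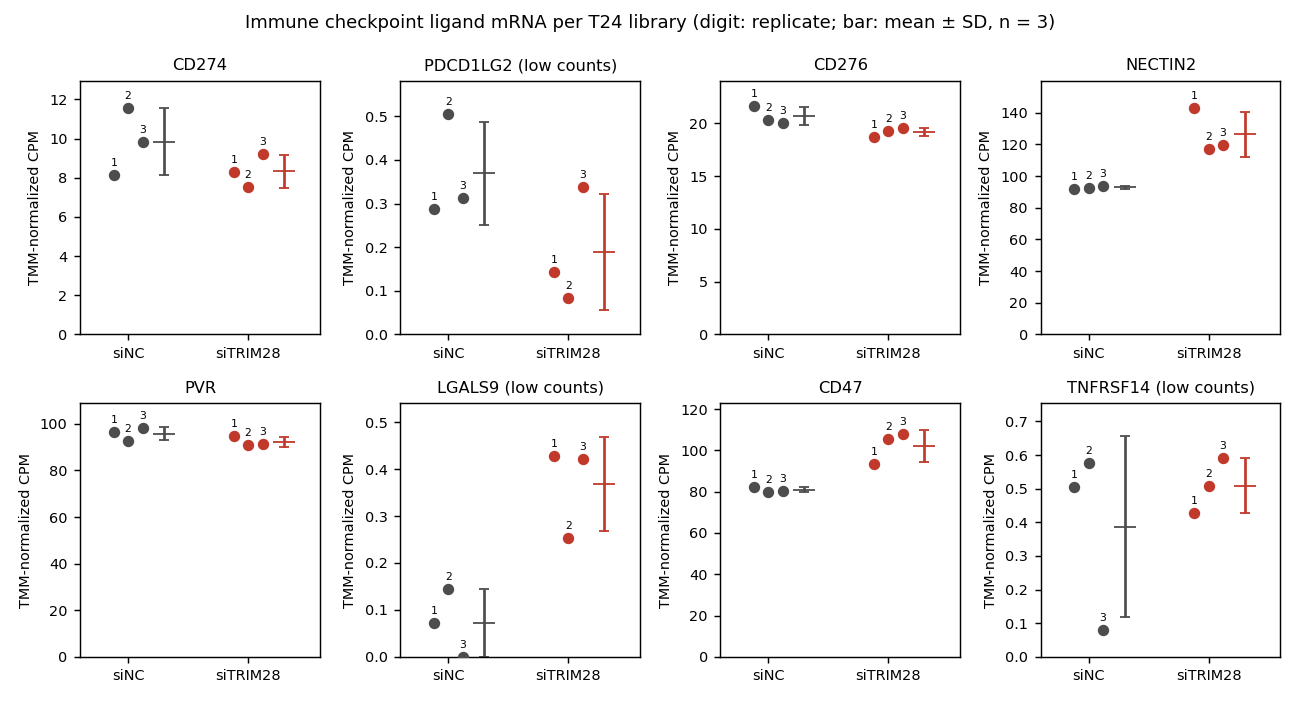
TMM-normalized CPM of the 8 ligand mRNAs in each T24 library, with the replicate number beside each point and the mean ± SD (n = 3) to the right of the points. The 3 siTRIM28 libraries lie above all siNC libraries for NECTIN2 (117 to 143 against 92.0 to 94.0) and CD47 (93.5 to 108 against 80.0 to 82.2), and the 3 ligands marked as low stay under 1 CPM.

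The order of the ligands by level is given here in RPKM (reads normalised to gene length and library size), computed from the counts with the gene lengths of the table and TMM scaling, because CPM cannot be compared between genes of different length. In siNC, NECTIN2 stood first with 24.8 ± 0.276 RPKM (SD, n = 3), higher than 90.0% of the genes tested. CD47 followed with 9.82 ± 0.147 RPKM and PVR with 9.18 ± 0.264 RPKM, and these neighbours did not overlap (9.71 to 9.99 against 8.89 to 9.41). The order of these upper ligands rests on the gene lengths of the table, which may differ from those of the transcripts expressed. In siNC, PVR had 95.7, NECTIN2 92.8 and CD47 80.8 CPM. The lack of overlap therefore does not settle the order of CD47 and PVR. CD276 at 3.77 ± 0.158 RPKM and CD274 at 2.39 ± 0.416 RPKM lay near the middle of all genes tested, at percentiles 57.8 and 46.9. The remaining ligands were more than an order of magnitude lower, with PDCD1LG2 at 0.152 ± 0.0489, TNFRSF14 at 0.0622 ± 0.0434 and LGALS9 at 0.0126 ± 0.0126 RPKM. TNFRSF14 and LGALS9 overlapped in siNC, so their order is not settled. After knockdown the order of the 5 upper ligands stayed as in siNC, with NECTIN2 at 33.8 ± 3.80, CD47 at 12.4 ± 0.941, PVR at 8.85 ± 0.206, CD276 at 3.49 ± 0.0744 and CD274 at 2.03 ± 0.206 RPKM, while the 3 lowest ligands overlapped each other.

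**Figure D2:**
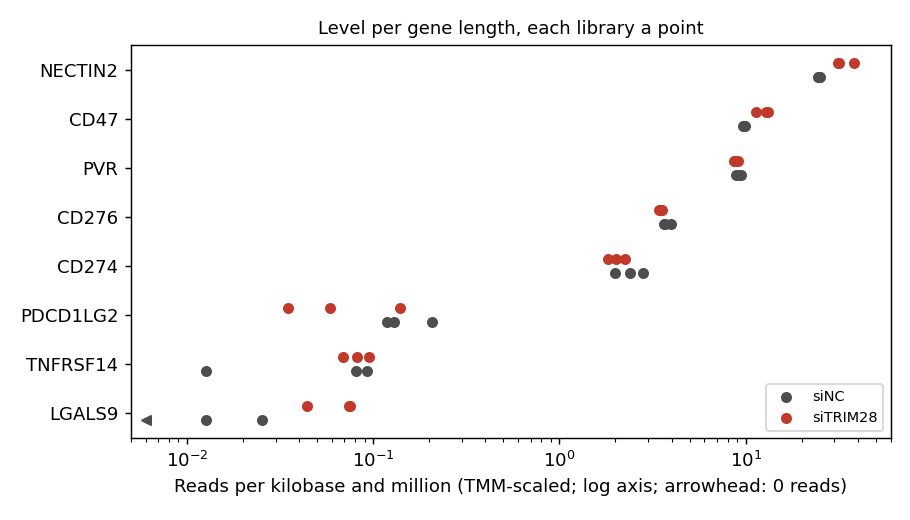
Level of each ligand mRNA per gene length (RPKM, log axis) in the siNC and siTRIM28 libraries, 1 point per library, with an arrowhead for a library without a read. NECTIN2 (24.8 RPKM in siNC) leads, CD274 (2.39 RPKM) is the lowest of the 5 tested ligands, and PDCD1LG2, TNFRSF14 and LGALS9 form a separate group far below.

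NECTIN2 (nectin-2, also CD112) is an adhesion molecule of epithelial junctions that TIGIT, PVRIG and CD226 recognise. The gene (ENSG00000130202) lies on the plus strand of chr19:44846175-44888894 of GRCh38. Its counts were 1278, 1281 and 1199 in siNC and 2001, 1389 and 1414 in siTRIM28, or 92.0, 92.5 and 94.0 CPM against 143, 117 and 119 CPM. The siNC libraries lay close together and every siTRIM28 library was above them, with replicate 1 the highest. The mean was 92.8 ± 1.03 CPM in siNC and 127 ± 14.2 CPM in siTRIM28 (SD, n = 3). The log2 fold change was 0.45 (SE 0.0693, adjusted p = 3.04e-04 in edgeR), a rise of 36.4% with a 95% interval of 22.8% to 51.5%. Without siTRIM28 replicate 1, which stood apart, the log2 fold change was 0.35 and the call remained. An exact two-sided permutation test over 3 against 3 libraries gave p = 0.1, the smallest it can give. Unnamed antisense genes that overlap NECTIN2 had at most 12 reads.

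PVR (CD155), which shares the receptors TIGIT and CD226 with NECTIN2 and also binds CD96, did not pass the test. The gene (ENSG00000073008) lies on the same chromosome, at chr19:44643798-44663562 on the plus strand. Its counts were 1337, 1283 and 1251 in siNC and 1327, 1075 and 1082 in siTRIM28, or 96.3, 92.7 and 98.1 CPM against 94.8, 90.8 and 91.4 CPM. The groups overlapped through siTRIM28 replicate 1, which was above siNC replicate 2. The log2 fold change was −0.05 (SE 0.0473, adjusted p = 0.420 in edgeR), and its 95% interval of −0.15 to 0.05 on the log2 scale spans from 10.2% lower to 3.71% higher than siNC. The overlapping genes CEACAM16-AS1 on the opposite strand and CEACAM19 on the same strand had 58 to 88 and 10 to 17 reads.

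The ratio of NECTIN2 to PVR reads was computed within each library, where any scaling between libraries cancels. On the log2 scale (0.5 added to each count) it was −0.07, 0.00 and −0.06 in siNC and 0.59, 0.37 and 0.39 in siTRIM28. The siNC cultures had near equal numbers of reads from the paired genes, and all 3 siTRIM28 cultures had more from NECTIN2. The difference of the group means was 0.49, with no overlap and an exact two-sided permutation p = 0.1, the smallest that 3 against 3 libraries can give. Without siTRIM28 replicate 1 the difference was 0.42.

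CD47, the ligand that restrains phagocytosis through SIRPA, was the other ligand to rise. The gene (ENSG00000196776) lies on the minus strand of chr3:108043091-108091862, and no other gene of the table overlaps it. Its counts were 1142, 1107 and 1025 in siNC and 1309, 1248 and 1279 in siTRIM28, or 82.2, 80.0 and 80.4 CPM against 93.5, 105 and 108 CPM. All siTRIM28 libraries were above all siNC libraries, and replicate 1, the highest siTRIM28 library for NECTIN2, was the lowest for CD47. The mean was 80.8 ± 1.21 CPM in siNC and 102 ± 7.75 CPM in siTRIM28 (SD, n = 3). The log2 fold change was 0.34 (SE 0.0587, adjusted p = 6.84e-04 in edgeR), a rise of 26.5% with a 95% interval of 15.7% to 38.2%. The exact two-sided permutation test gave p = 0.1, the smallest possible, and without siTRIM28 replicate 1 the log2 fold change was 0.40.

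CD274 encodes PD-L1, and its mRNA did not change beyond the spread between libraries. The gene (ENSG00000120217) lies on the plus strand of chr9:5450503-5467866. Its counts were 113, 160 and 125 in siNC and 116, 89 and 109 in siTRIM28, or 8.14, 11.6 and 9.80 CPM against 8.28, 7.52 and 9.21 CPM. The groups overlapped, since siNC replicate 1 was lower than siTRIM28 replicates 1 and 3. The log2 fold change was −0.24 (SE 0.138, adjusted p = 0.193 in edgeR), with a 95% interval of −31.3% to 4.57% in percent of the siNC level. This interval is the widest among the 5 tested ligands, and the exact two-sided permutation p was 0.3. The value moved with single libraries of either group, being −0.11 without siNC replicate 2, −0.37 without siNC replicate 1, −0.17 without siTRIM28 replicate 2 and −0.32 without siTRIM28 replicate 3, and none of these passed the test.

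PDCD1LG2 (PD-L2), the neighbour of CD274 on chromosome 9 (ENSG00000197646, chr9:5510531-5571282, plus strand), had too few reads for the test. The 4, 7 and 4 reads in siNC stood against 2, 1 and 4 in siTRIM28, and the groups overlapped. The summed counts of 15 and 7 give a ratio of 0.501 after scaling by library size, with an exact 95% interval of 0.173 to 1.31 that covers counting error only. Without siTRIM28 replicate 3 the log2 of this ratio was −1.67. The log2 ratio of CD274 to PDCD1LG2 within each library was 4.66, 4.42 and 4.80 in siNC and 5.54, 5.90 and 4.60 in siTRIM28, overlapping groups whose means differed by 0.72 (exact two-sided permutation p = 0.3). That difference was 0.45 without siTRIM28 replicate 2 and 1.09 without siTRIM28 replicate 3. An antisense gene that overlaps CD274 and PDCD1LG2 had 7 to 13 reads, which is more than PDCD1LG2 itself in most libraries.

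CD276 (B7-H3) is a member of the same family of B7 proteins as PD-L1 and restrains T cells through a receptor that is not settled. The gene (ENSG00000103855) lies on the plus strand of chr15:73683966-73714053 and overlaps no other gene of the table. Its counts were 301, 281 and 256 in siNC and 262, 228 and 231 in siTRIM28, or 21.7, 20.3 and 20.1 CPM against 18.7, 19.3 and 19.5 CPM. Every siTRIM28 library was below every siNC library, but by little, and the change did not pass the test. The log2 fold change was −0.11 (SE 0.0660, adjusted p = 0.206 in edgeR), with a 95% interval of −16.3% to 2.30%. The exact two-sided permutation test gave its smallest p of 0.1.

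**Figure D3:**
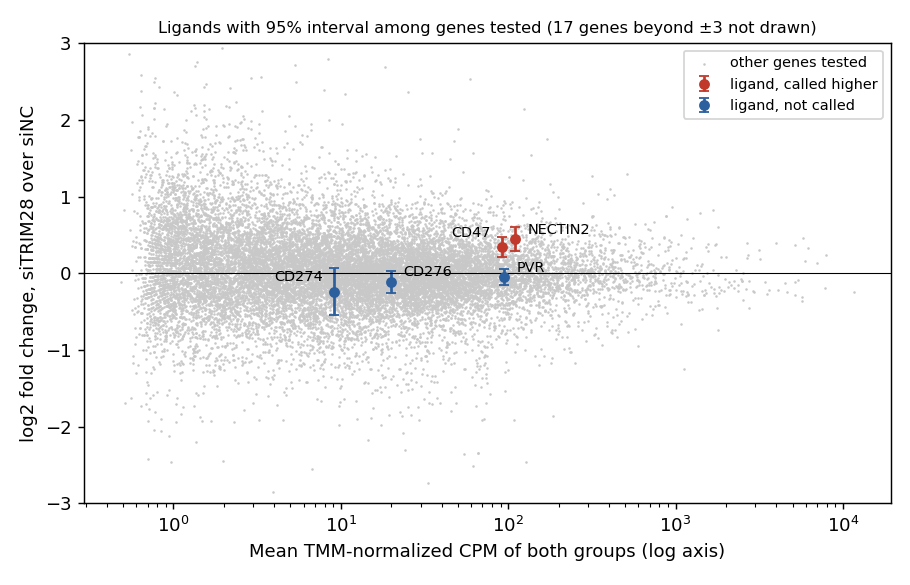
log2 fold change (siTRIM28 over siNC) against mean TMM-normalized CPM (log axis) for the genes tested, with the 5 tested ligands and their 95% intervals in colour and 17 genes beyond the axis not drawn. NECTIN2 (0.45) and CD47 (0.34) lie above 0 with their whole interval, and the intervals of PVR, CD276 and CD274 include 0.

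LGALS9 encodes galectin-9, a secreted lectin that binds TIM-3 (HAVCR2), and was close to absent. The gene (ENSG00000168961) lies on the plus strand of chr17:27629798-27649554. It had 1, 2 and 0 reads in siNC and 6, 3 and 5 in siTRIM28, and the 0 in siNC replicate 3 allows up to 0.235 CPM. All siTRIM28 libraries had more reads than all siNC libraries, but the highest held 6. The summed counts of 3 and 14 give a ratio of 5.01 with an exact 95% interval of 1.40 to 27.2, which covers counting error and not the spread between cultures. Its log2 value of 2.33 was 3.31 without siNC replicate 2 and 1.78 without siNC replicate 3. When every gene with a read entered the fit, the log2 fold change was 2.18 and the adjusted p 0.0534 (edgeR), so no call was made. The near-identical copies LGALS9B and LGALS9C had at most 1 read each, and with them added the sums were 3 and 16. An unnamed gene on the same strand that overlaps LGALS9 had 31 to 47 reads, more than LGALS9 in every library, and how reads in the shared stretch were assigned is not given in the sources used here.

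TNFRSF14 (HVEM), the ligand of BTLA and CD160 on lymphocytes, was also under the minimum. The gene (ENSG00000157873, chr1:2555639-2565382, plus strand) had 7, 8 and 1 reads in siNC and 6, 6 and 7 in siTRIM28. The groups overlapped, and siNC replicate 3 was far below all others. The summed counts of 16 and 19 give a ratio of 1.28 with an exact 95% interval of 0.621 to 2.65 (counting error only). The log2 ratio of 0.35 became −0.101 without siNC replicate 3, so its sign rested on 1 library.

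Bases upstream of the RefSeq starts of NECTIN2, CD47 and CD274 are shown because these ligands stand for the rises and for the ligand best known to follow interferon. They come from RefSeq on GRCh38.p14, at chr19:44846047-44846174 for NECTIN2 (plus strand), chr3:108091032-108091281 for CD47 (minus strand) and chr9:5450292-5450502 for CD274 (plus strand). The NECTIN2 and CD274 stretches end where the gene begins in the count table, whereas the CD47 stretch ends at the RefSeq start and lies inside the longer span that the count table gives CD47. Capitals mark, on either strand, GGGCGG (the SP1 box), GAAANNGAA (the core bound by interferon regulatory factors) and TTCNNNGAA (the core of the GAS element bound by STAT dimers), and marks may overlap or abut.
NECTIN2: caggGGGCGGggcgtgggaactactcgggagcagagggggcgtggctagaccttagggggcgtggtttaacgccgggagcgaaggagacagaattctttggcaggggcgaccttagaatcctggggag
CD47: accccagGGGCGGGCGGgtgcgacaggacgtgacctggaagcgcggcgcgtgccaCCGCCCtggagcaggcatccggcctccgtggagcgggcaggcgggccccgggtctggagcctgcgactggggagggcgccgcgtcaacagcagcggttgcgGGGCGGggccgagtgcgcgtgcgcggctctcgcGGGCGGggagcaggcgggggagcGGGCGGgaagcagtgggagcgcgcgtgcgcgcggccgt
CD274: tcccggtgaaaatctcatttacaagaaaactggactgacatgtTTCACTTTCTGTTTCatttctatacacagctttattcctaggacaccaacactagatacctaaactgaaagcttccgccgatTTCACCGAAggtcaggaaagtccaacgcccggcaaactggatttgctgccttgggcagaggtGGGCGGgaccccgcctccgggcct
The CD274 stretch held 2 overlapping matches to the interferon regulatory factor core, 1 to the GAS core and 1 SP1 box. The CD47 stretch of 250 bases held 6 SP1 boxes, some of them overlapping, and the shorter NECTIN2 stretch of 128 bases held 1. None of the interferon cores occurred in these 2 stretches. Over 250 bases NECTIN2 had 3 SP1 boxes. In 250 bases upstream, 7 of the 8 ligands had a RefSeq entry, and the interferon regulatory factor and GAS cores occurred in CD274 alone among them. Of 35116 RefSeq promoters searched over the same length, 6.88% held the first core, 6.57% the GAS core and 42.6% an SP1 box. A match is a description of letters and not evidence that a factor binds there.

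The receptors of the ligands were mostly near 0 in these cultures. Of 15 receptors and binding partners, 11 were under the count minimum, among them PDCD1, TIGIT, CD226, CD96, BTLA and CD160 with at most 2 reads in any library. The 4 tested were RGMB, SIRPA, HAVCR2 and PVRIG, and of these PVRIG rose (log2 fold change 1.16, adjusted p = 2.80e-04, edgeR). PVRIG, a receptor for NECTIN2 that was named after its values were seen, had 40, 26 and 30 reads in siNC and 73, 62 and 65 in siTRIM28, without overlap. A gene on its own strand that overlaps PVRIG had 60 to 101 reads. On the opposite strand, an unnamed overlapping gene had 344 to 502 reads and CASTOR3P 82 to 116. Whether reads were shared is not known. SIRPA, the receptor of CD47, was at 50.5 CPM in siNC and 45.8 CPM in siTRIM28 and was not called (adjusted p = 0.0919, edgeR). HAVCR2 had 9, 12 and 10 reads in siNC and 29, 6 and 8 in siTRIM28, so its log2 fold change of 0.56 came from replicate 1 and was −0.37 without it. MED7, a gene on the same strand that overlaps HAVCR2, had 206 to 256 reads.

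Among genes that act on the PD-L1 and CD47 proteins, several fell. Of 11 such genes 9 were tested, 2 rose and 5 fell, where 21.3% of all genes tested were called higher and 20.5% lower. The median log2 fold change of the 9 was −0.23, where that of all genes tested was 0.02. This list, like the others, was chosen with earlier results of these data known, so its shares are a description only. SPOP, an adaptor of a ubiquitin ligase that marks PD-L1 for degradation, went from 36.8 ± 1.79 to 13.5 ± 1.23 CPM (a log2 change of −1.45, adjusted p = 9.58e-08, edgeR). CMTM6, which keeps PD-L1 at the cell surface, had 606, 533 and 530 reads in siNC and 279, 208 and 224 in siTRIM28, a log2 fold change of −1.13 (SE 0.0743). Its relative CMTM4, with the same role, had 368, 336 and 315 reads in siNC and 152, 117 and 109 in siTRIM28, a log2 fold change of −1.33 (SE 0.0798). These 3 genes, whose products act on PD-L1 in opposite directions, were at 0.366 (SPOP), 0.398 (CMTM4) and 0.457 (CMTM6) times the siNC level, while CD274 mRNA itself was not called.

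QPCTL, the enzyme that modifies the end of CD47 for binding to SIRPA, and GSK3B, a kinase that marks PD-L1 for degradation, also fell. QPCTL had 102, 103 and 83 reads in siNC and 73, 45 and 62 in siTRIM28 (log2 fold change −0.57, adjusted p = 0.00962, edgeR), and GSK3B changed by −0.23 (adjusted p = 0.00729, edgeR). Both were named after their values were seen. QPCTL overlaps SNRPD2 on the opposite strand, which had 2422 to 3972 reads. ADAM17, a protease that sheds surface proteins including PD-L1, rose by 0.23 and COPS5, which removes ubiquitin from PD-L1, by 0.17 on the log2 scale, the latter call being lost in 7 of 18 other settings. CSPP1 on the opposite strand overlaps COPS5 and had 1364 to 1666 reads. STUB1, a ligase that also acts on PD-L1, was not called and had 1463 reads in siTRIM28 replicate 1 against 816 and 807 in the others.

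Genes of interferon gamma signalling towards CD274 moved by small amounts and in both directions. Of 13 such genes 12 were tested, 5 rose and 2 fell, beside 21.3% and 20.5% of all genes tested, with a median log2 fold change of 0.13. STAT2 rose by 0.39 on the log2 scale (10.7 ± 1.05 CPM in siNC), the receptor chain IFNGR1 rose by 0.27 and IRF2, a repressor of interferon responses, by 0.25. JAK1, named after its values were seen, passed the test with a smaller rise of 0.14, a call lost in 8 of 18 other settings. PTPN2, a phosphatase that restrains JAK and STAT proteins, fell from 41.6 to 30.9 CPM (a log2 change of −0.43, adjusted p = 1.38e-04, edgeR), and STAT3 fell by 0.36 on the log2 scale. IRF1, the factor that carries the signal to the CD274 promoter, was not called (8.50 against 10.6 CPM, adjusted p = 0.0624, edgeR). A call of IRF1 as higher was gained in 3 of 18 other settings. An unnamed gene on the opposite strand that overlaps IRF1 had 2713 to 3651 reads.

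Other ligands of immune receptors gave a mixed picture. Of 30 such genes 19 were tested, 5 rose and 3 fell, near the shares of 21.3% and 20.5% of all genes tested. The count of 8 calls became 5 with DESeq2 and also without siNC replicate 2. BTN2A1, a ligand of the gamma delta T cell receptor, rose from 50.1 to 78.0 CPM (a log2 change of 0.64, adjusted p = 3.88e-06, edgeR). The lectin LGALS1 rose from 109 to 147 CPM (0.43 on the log2 scale) and the costimulatory receptor CD40 from 30.0 to 40.1 CPM (0.42). LGALS1 was at 105 to 116 CPM in siNC and at 171, 136 and 134 CPM in siTRIM28, with replicate 1 the highest. A gene antisense to LGALS1 had 975 to 1952 reads. NCR3LG1, a ligand of natural killer cells, and TNFSF9, the ligand of 4-1BB, also passed the test, TNFSF9 with 3 to 6 reads in siNC and 10 to 14 in siTRIM28 and NCR3LG1 with a call lost in 7 of 18 other settings. Both were named after their values were seen. HMGB1, a chromatin protein that binds TIM-3 when released, fell from 1345 to 1036 CPM (log2 fold change −0.38). An unnamed gene antisense to HMGB1 had 1468 to 2752 reads. NECTIN1 and BTN2A2 fell by 0.30 and 0.24 on the log2 scale, calls that were lost in 5 and 9 of 18 other settings.

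Ligands of NKG2D, the activating receptor of natural killer cells, were called higher in 3 of the 7 tested of 8, where 21.3% of all genes tested were. RAET1E had 37, 31 and 35 reads in siNC and 180, 153 and 169 in siTRIM28, a log2 fold change of 2.39 (SE 0.129, adjusted p = 9.21e-08, edgeR). A gene on the same strand that overlaps RAET1E had 766 to 947 reads. MICB rose by 0.50 on the log2 scale (9.86 ± 0.926 CPM in siNC), while its paralogue MICA (56.0 and 55.8 CPM), ULBP1 (log2 fold change −0.16) and ULBP3 (−0.16) were not called. ULBP2, named after its values were seen, rose by 0.77 on the log2 scale.

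**Figure D4:**
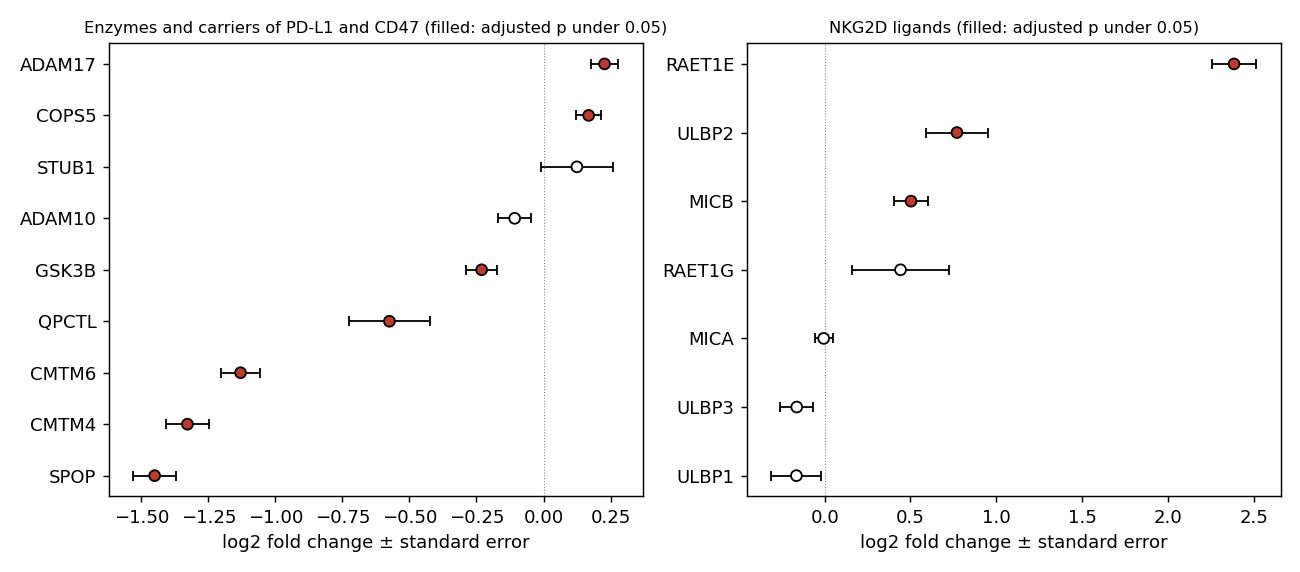
log2 fold change (siTRIM28 over siNC) ± SE of the tested genes that act on the PD-L1 and CD47 proteins (left) and of the tested NKG2D ligands (right), filled where the adjusted p was under 0.05. SPOP (−1.45), CMTM4 (−1.33) and CMTM6 (−1.13) are the lowest on the left, and RAET1E (2.39) is the highest on the right.

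The genes whose pattern over the 6 libraries was closest to that of NECTIN2 were MRGBP, MAPRE1 and LDHA. They were at distances of 0.0667, 0.0735 and 0.0740 (Euclidean, on log2 CPM centred on each gene's mean) among 11339 genes with a symbol and a mean of at least 50 counts. Genes close to CD47 included ZEB2 at 0.0388 and PTGR3 at 0.0499, which were named after values were seen. These lists describe 6 libraries that share the contrast under study, and nothing was tested on them.

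The calls for the 5 tested ligands were compared over 18 other settings of scaling, filter, test, threshold and libraries. Summing the LGALS9 copies left the fits of these ligands unchanged, and the stricter threshold used the same fit, so the settings are not independent checks. NECTIN2 and CD47 were called higher in all 18, with log2 fold changes of 0.35 to 0.50 and 0.29 to 0.40. CD274, CD276 and PVR were called in none, with ranges of −0.37 to −0.11, −0.14 to −0.08 and −0.08 to −0.02. With siNC replicate 3 and siTRIM28 replicate 1 left out together, NECTIN2 was at 0.36 and CD47 at 0.40, and both were called. With the closest pair of each group summed into 1 library, NECTIN2 was at 0.49 (adjusted p = 0.00716, edgeR). CD47 was then at 0.31 (adjusted p = 0.0233, edgeR), a weaker result than with all 6 libraries.

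**Figure D5:**
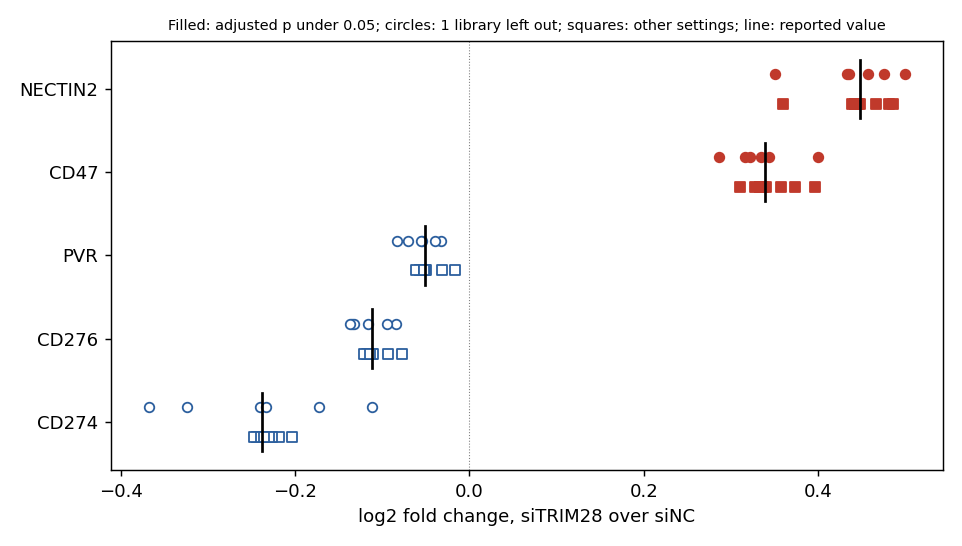
log2 fold change (siTRIM28 over siNC) of the 5 tested ligands with 1 library left out (circles) and under other settings (squares), filled where the adjusted p was under 0.05, with a line at the reported value. All points of NECTIN2 (0.35 to 0.50) and CD47 (0.29 to 0.40) are filled, and CD274 spreads most, from −0.37 to −0.11.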

How the data were processed

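RNA was measured in 6 libraries of T24 cells, 3 siNC and 3 siTRIM28. The values the authors deposited are raw read counts for each gene of GRCh38. The submitters' processing notes name fastp 0.23.1, STAR 2.7.6a and featureCounts. The strand setting and annotation release are not given in the sources used here, so antisense and same-strand overlaps are stated beside some of the genes they touch. Genes without such a statement may also overlap others. A second deposited table, holding RPKM values of the authors' selected genes, was not used, and the RPKM values printed here were computed from the counts.

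The quasi-likelihood F-test of edgeR 4.0.16 (R 4.3.3, TMM scaling, treatment as the sole factor) was run on the 18474 genes that reached 10 counts in 3 or more libraries. Benjamini-Hochberg adjustment covered all of them, and calls used an adjusted p under 0.05. Each SE was taken as the size of the log2 fold change over the root of its F statistic. Exact permutation tests used log2 CPM with a prior count of 2. Intervals on counts are exact, at 95%, and cover counting error only. P-values measure the spread between these 6 libraries, which the labels call biological replicates.

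The ligands and the 8 further gene lists were chosen with earlier results of these data known. Genes named from a list were up to 3 called genes per direction with the largest change among those averaging 50 counts or more, other names being marked. Some genes of these lists are not reported here by name. Tests were checked on simulated counts of independent libraries, which do not have the close replicate pairs seen here. Alternatives were scaling by RLE, by the upper quartile or by totals, DESeq2 1.42.0, limma-voom (limma 3.58.1), other filters, a replicate block, libraries left out or summed, LGALS9 copies summed and an adjusted p under 0.01. Figures were drawn with matplotlib 3.10.9.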

Additional observations from a re-analysis of the deposited data

How the results depend on the processing

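The log2 fold changes of the 5 tested ligands kept the same sign, and none gained or lost its call, in 17 other settings and in 1 chosen after seeing the data, which left out siNC replicate 3 and siTRIM28 replicate 1 together. The ratios between ligands kept their direction in the 10 settings run for them, and of the 3 ligands with few reads TNFRSF14 changed sign (−0.101 without siNC replicate 3). With 1 library left out at a time, TRIM28 ranged from −3.58 to −3.49, NECTIN2 from 0.35 to 0.50 and CD47 from 0.29 to 0.40 on the log2 scale. The replicate numbers did not pair the samples (correlations of same-numbered libraries 0.05, −0.01 and 0.04, and not every library was closest to its own number). With the number as a replicate block 7910 genes were called in place of 7723, and no call of a ligand changed (NECTIN2 0.44, CD47 0.34, CD274 −0.23, CD276 −0.11, PVR −0.05). DESeq2 called 5878 genes and an adjusted p under 0.01 left 5393. The median log2 fold change of all genes lay between 0.00 and 0.07 over the settings.

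Of the other genes followed through these settings, 3 that were not called changed sign. MICA was at 0.0287 with upper-quartile scaling and 0.0135 with total counts. With 1 library left out, MICA ranged from −0.0332 to 0.00818 (siNC replicate 2 left out), HAVCR2 from −0.37 to 0.89 and STUB1 from −0.11 to 0.22, the lowest values of these last genes coming without siTRIM28 replicate 1. Without it and siNC replicate 3 they were at −0.35 and −0.15. The cause was not tested. PDCD1LG2, LGALS9 and TNFRSF14 had at most 8 reads in any library and stayed under the count minimum. The size of change detectable in them was not computed, so the lack of a call does not show that they were unchanged.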
